A study of Mus musculus with 4 samples.

Results

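Hypothalamus spots were the capture spots of a Visium array with the highest share of 4 transcripts, Baiap3, Hap1, Ahi1 and Resp18, in coronal mouse brain sections that also held cortex, hippocampus and thalamus. They were chosen by measured values: among spots with 500 or more UMIs (unique molecular identifiers, 1 for every mRNA molecule captured), the summed UMIs of these genes were divided by the total of the spot, and the top 6% of spots of each section were kept where they held 3 or more such UMIs. This gave 530 of 9676 spots, 147 of 2601 in trained 1, 167 of 2829 in trained 2, 86 of 1821 in untrained 1 and 130 of 2425 in untrained 2. Each section came from 1 mouse, so the section was the replicate, with 2 trained and 2 untrained mice.

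All 4 mice were male ArcCreERT2::eYFPflx animals on a C57BL/6 background, 3 to 4 months old, and all received 4-hydroxytamoxifen under isoflurane, so that cells with an active Arc promoter at that time could recombine and carry eYFP. Trained mice had learned to avoid a shock zone on a rotating arena (active place avoidance), and untrained mice had walked the same arena with the shock off. Tissue was taken 3 days after the retention test and cut at 10 µm. Both groups carried the same alleles and the same injection, so neither was free of Cre, reporter or drug.

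The hypothalamus lies at the base of the forebrain beside a midline ventricle and holds many small nuclei whose neurons make peptide hormones. Magnocellular neurons of the paraventricular and supraoptic nuclei make oxytocin (Oxt) and vasopressin (Avp), lateral neurons make melanin-concentrating hormone (Pmch) and hypocretin (Hcrt), and arcuate neurons make Agrp, Npy, Pomc, Cartpt and Ghrh, so the set of peptides in a coronal section depends on where along the front-to-back axis it was cut. Huntingtin-associated protein Hap1 and its partner Ahi1 are abundant in hypothalamic neurons. Resp18 is a protein of the regulated secretory pathway, and Baiap3 acts in the trafficking of dense core vesicles. A Visium spot samples several neighboring cells, so that fewer cells of a type and less RNA per cell cannot be told apart in any value below.

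Depth differed between sections. Over tissue they held 3560294 to 10330015 UMIs, lowest in untrained 1, and the sums over hypothalamus spots were 431177 and 502890 UMIs for the trained and 139534 and 337591 UMIs for the untrained sections. A gene at 0 UMIs in these spots could be present at up to 6.96, 5.97, 21.5 and 8.89 CPM (counts per 1000000 UMIs) in that order, the level of 3 counts. Such limits, and the intervals given below, cover counting error only. Median UMIs per spot were 2415, 2430, 1222 and 1913.5, against 2132.5, 2755, 1365 and 2054 in all other spots. Mitochondrially encoded transcripts made up 10.3, 4.72, 10.8 and 9.24% of the UMIs of hypothalamus spots, lowest in trained 2.

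The score, in UMIs of the 4 genes per 10000, ran to 65.6, 97.2, 81.4 and 79.0 in the highest spots, with medians of 31.5, 42.5, 35.9 and 37.1 in the chosen spots and of 3.64, 4.79, 5.54 and 3.64 in all others. The last spots taken scored 23.9, 34.6, 28.2 and 27.4 and the next spots outside with 3 or more such UMIs 23.7, 34.4, 28.1 and 27.2, so the edge lay within a continuous range and marked no gap. Another 9, 2, 23 and 15 spots reached these scores with fewer than 3 UMIs of the 4 genes and were left out.

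The spots lay mostly at the base of the section, where the label places them, and least so in untrained 1. In the lowest of 3 equal parts of the section's rows lay 95.2, 99.4, 76.7 and 94.6% of them, against 30.6 to 34.5% of all spots. In each section they fell into a group toward the straight inner edge of the tissue, called medial here, and a group farther out, called lateral, which were split by array column, with the side that held Pmch named medial, into 118 and 29 spots in trained 1, 143 and 24 in trained 2, 40 and 46 in untrained 1, and 81 and 49 in untrained 2. The lateral share was thus 19.7, 14.4, 53.5 and 37.7%, higher in both untrained sections. In untrained 1 the tissue ran to the last column of the array on the medial side, so any tissue beyond it was not captured. The spots were least contiguous in untrained 1: the largest connected patch held 81, 98, 9 and 31 spots, and of the direct neighbors of a hypothalamus spot 42.3, 44.3, 24.7 and 43.5% were hypothalamus spots themselves.

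**Figure D1:**
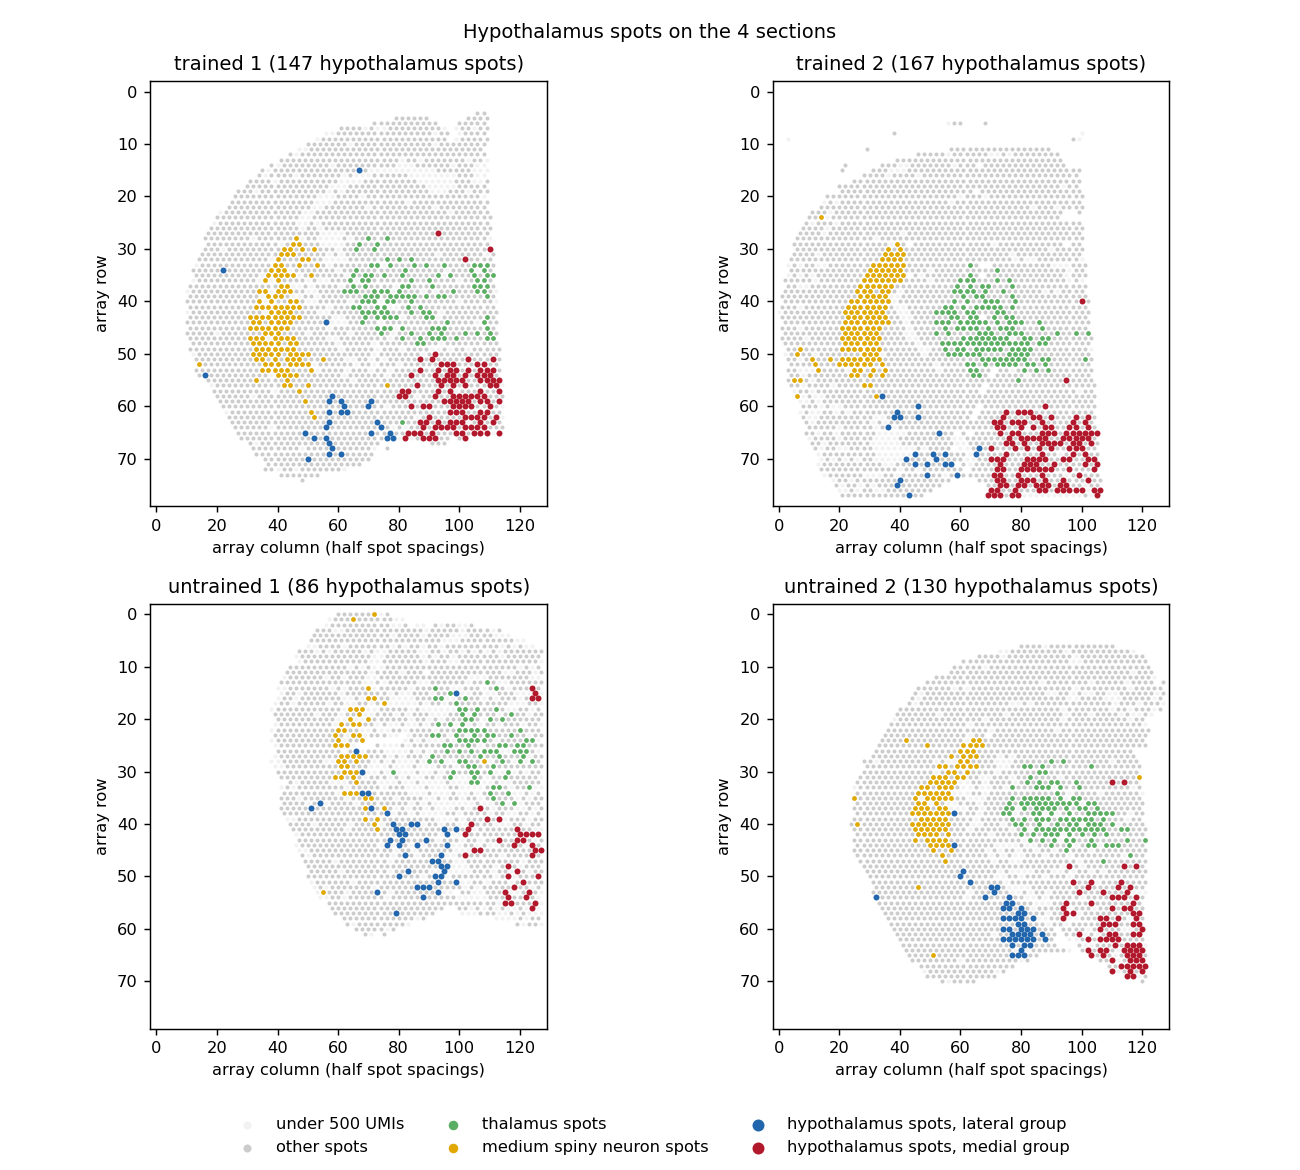
Position of the spots on each array, with the array column on the x axis, in units of 0.5 spot spacings, and the array row on the y axis, downward. Red and blue points are the medial and lateral hypothalamus spots, green and yellow points the spots chosen in the same way by thalamus and medium spiny neuron genes. The red group sits at the lower right of every section, and the blue group makes up 29 and 24 spots in trained and 46 and 49 in untrained sections.

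The chosen spots were next described by all genes, which is no independent check of the label. Genes were compared as log2 of the ratio of CPM in hypothalamus spots to CPM in all other spots of the section, with 5 CPM added to both, and given as a description, since the same spots were chosen by their expression. Of 6344 genes with 40 or more UMIs in the chosen spots, 46 (0.725%) were over 2-fold higher in all 4 sections and 19 (0.299%) over 2-fold lower. At any size, 1293 (20.4%) were higher and 990 (15.6%) lower in all 4 sections, and the median over all genes of the mean log2 ratio was 0.025. Of the 46, 42 were not used by the rule. Baiap3 itself stood at 292, 432, 287 and 388 CPM, Hap1 at 756, 849, 968 and 1013, Ahi1 at 835, 925, 996 and 978, and Resp18 at 1364, 2122, 1455 and 1451. These values chose the spots and show only how far the rule reached.

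Among regulators, Otp, a homeobox factor needed for neuroendocrine hypothalamic neurons, had 102, 65.6, 57.3 and 56.3 CPM in trained 1, trained 2, untrained 1 and untrained 2, against 6.05, 7.17, 8.60 and 3.73 in other spots. Its mean log2 ratio was 2.70 ± 0.46 (SD, n = 4), and no section of the one class overlapped the other. Irs4, an adaptor of insulin signaling with strong hypothalamic expression, reached 39.4, 75.6, 86.0 and 97.8 CPM against 3.03 to 8.30 elsewhere (2.88 ± 0.42). Of 30 hypothalamic transcription factors listed, 4 had enough UMIs for a ratio, and of these Otp was over 2-fold higher in all sections (0.725% of all genes). Dlx1, a factor of GABA neurons, was higher in all 4 (1.06 ± 0.24), whereas Six3 was not.

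Many imprinted genes were higher in the hypothalamus spots. Of 26 listed, 24 had enough UMIs, 17 were higher in all 4 sections (20.4% of all genes) and 6 over 2-fold higher (0.725% of all genes), and their median log2 ratio was 1.12 against 0.025 for all genes. Without untrained 1 the 6 became 13, over the largest patch 3 and with 20 CPM added 2. Magel2, a gene of the Prader-Willi region, stood at 67.3, 75.6, 28.7 and 62.2 CPM against 6.49 to 10.8 elsewhere (2.22 ± 0.58, n = 4). Its neighbor Ndn reached 501, 756, 552 and 773 CPM (1.53 ± 0.42). Dlk1, a Notch-like membrane protein, had 283, 219, 35.8 and 190 CPM (2.56 ± 1.06), lowest in untrained 1. Asb4 (2.24 ± 0.53, with 2 UMIs in untrained 1, under the level of 3 counts), Peg10 (1.93 ± 0.38) and Nap1l5 (1.36 ± 0.19) made up the rest of the 6. Snrpn, which neurons express broadly, had a ratio of 0.06 ± 0.09, and Peg13 of -0.22 ± 0.31.

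Other leading genes were receptors, enzymes and stress proteins. Gabrq, the theta subunit of GABA-A receptors, had 32.5, 71.6, 71.7 and 44.4 CPM against 2.43 to 8.40 elsewhere (2.47 ± 0.28). Neuroglobin (Ngb) had a ratio of 2.62 ± 0.34 and plasma glutathione peroxidase (Gpx3) of 2.49 ± 0.64. Tyrosine hydroxylase (Th), the first enzyme of dopamine synthesis, had 32.5, 51.7, 35.8 and 38.5 CPM against 1.78 to 6.76. Ddc, the next enzyme, was at 1.47 ± 0.52 and over 2-fold in 3 sections, at 0.78 in untrained 1. Of the GABA genes, Gad2 (0.85 ± 0.30) and the vesicular transporter Slc32a1 (0.73 ± 0.22) were higher in every section, while Gad1 (0.04 ± 0.40) was not. Among 28 genes of hormone receptors and related signaling 6 had enough UMIs. Irs4 and Gabrq, neither of them a hormone receptor, were those over 2-fold higher in all sections (0.725% of all genes). The 2 became 1 without trained 2, 4 without untrained 1 and 0 with every spot thinned to 500 UMIs. Leptin receptor (Lepr) had UMIs in untrained 1 only, at 7.17 CPM, which is below the level of 3 counts there.

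Transcripts of secretory granule proteins went both ways. Scg2, a granin, stood at 703, 1084, 667 and 755 CPM against 229 to 298 elsewhere (1.58 ± 0.30). It was the 1 of 15 secretory granule genes measured that was over 2-fold higher in all sections (0.725% of all genes). At any size 7 of the 15 were higher and 6 lower in all 4 sections, as were 20.4% and 15.6% of all genes. Pcsk1n had a ratio of 0.63 ± 0.07, Scg5 of 0.35 ± 0.10 and Vgf of 0.66 ± 0.33. On the other side, Cpe (-0.22 ± 0.07), Chgb (-0.38 ± 0.12) and Pcsk2 (-0.55 ± 0.27) were lower in all 4 sections, and the median over the 15 genes was 0.35.

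**Figure D2:**
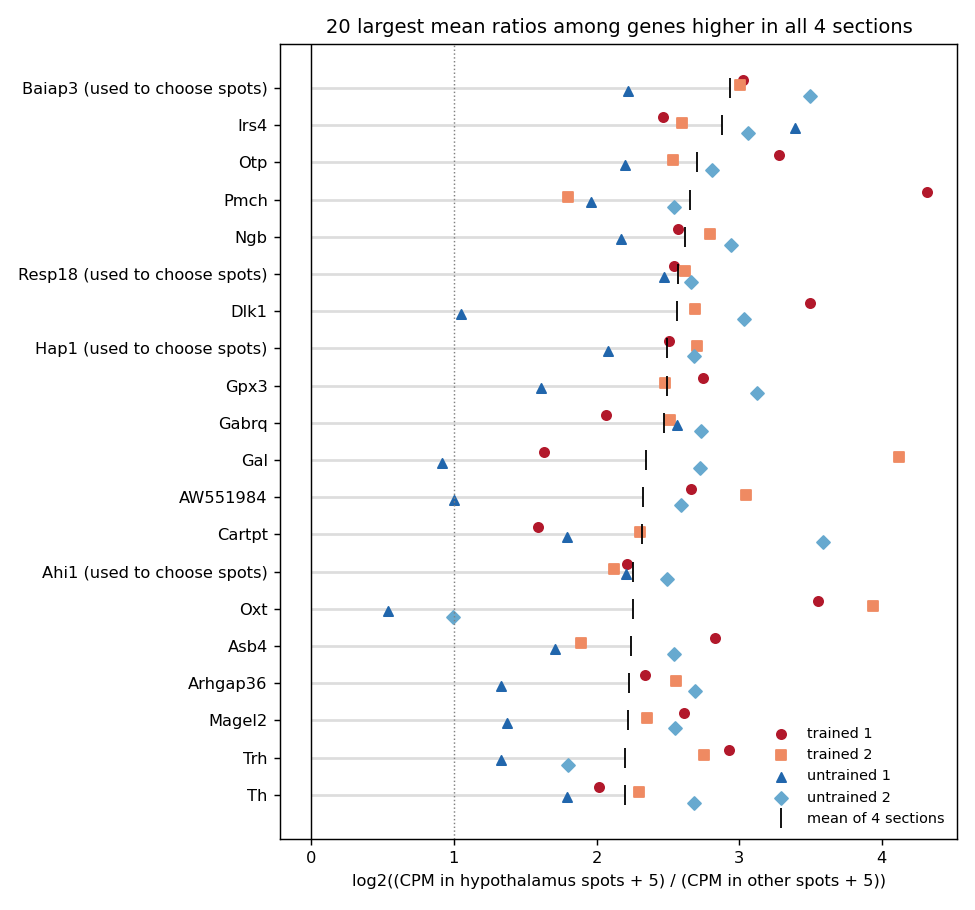
Log2 ratio of CPM in hypothalamus spots to CPM in other spots (x axis, 5 CPM added to both) for the 20 genes with the largest mean among those higher in all 4 sections, a choice that puts every point above 0, with 1 point per section and a black mark at the mean. Avp (mean 2.29) is not shown, being lower in untrained 2, and untrained 1 is the lowest section for genes such as Dlk1 (1.05) and Magel2 (1.37).

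Glutamatergic genes split by transporter. Slc17a7, the vesicular transporter of cortex and hippocampus, had 123, 65.6, 222 and 110 CPM against 410 to 662 elsewhere (-2.16 ± 0.46), the lowest mean ratio among the genes lower in every section. Slc17a6, the transporter of thalamus and hypothalamus, was near the rest of the section at 121, 163, 143 and 133 CPM (0.21 ± 0.14), and below thalamus spots (log2 ratio -1.30). Thalamus and medium spiny neuron spots, 513 and 468 spots chosen in the same way by their own genes, less any spots already taken, were used for comparison. Against thalamus spots 165 of 6344 genes (2.6%) were over 2-fold higher in all sections, and against medium spiny neuron spots 101 (1.59%). Neuropeptide genes had medians of 2.73 and 2.09 in these comparisons and imprinted genes of 1.23 and 1.48. Over 2-fold higher in all sections were 10 and 8 of 20 neuropeptides and 8 and 8 of 24 imprinted genes. Other peptides were lower than in medium spiny neuron spots, with mean ratios of -2.67 for Penk, -1.66 for Tac1, -1.35 for Pdyn and -0.87 for Npy. Gad2 and Slc32a1 were above thalamus spots (2.40 and 2.81) but not above medium spiny neuron spots (0.01 and -0.26), which are themselves GABAergic.

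Oligodendrocyte and choroid plexus markers were lower, and astrocyte markers differed among themselves. Summed CPM of 6 oligodendrocyte genes was 2512 to 3662 in hypothalamus spots against 3908 to 6814 elsewhere, with 5 of 6 genes lower in every section (15.6% of all genes). Angiotensinogen (Agt), made by astrocytes of deep brain nuclei, was higher at 232, 233, 208 and 154 CPM against 52.6 to 74.9 (1.56 ± 0.12), whereas Gfap was lower in all 4 sections (-0.45 ± 0.47), and Aqp4 (-0.09 ± 0.27) and Gja1 (0.15 ± 0.23) were not on the same side in every section. Slc1a3 was higher in all 4 (0.29 ± 0.21), and the 5 astrocyte genes summed to 849, 861, 717 and 726 CPM against 546, 635, 557 and 575. Choroid plexus transcripts, led by Ttr, were present in every class of spots. Their summed CPM was 1508, 286, 1319 and 1783 in hypothalamus spots, against 6334, 826, 2845 and 5983 in others.

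Levels of the neuropeptides differed widely between sections. Of 31 listed, 20 had enough UMIs for a ratio, and 4 of them, Pmch, Cartpt, Trh and Ghrh, were over 2-fold higher in all 4 sections (0.725% of all genes). Without trained 1 there were 7, over the largest patch 1 and with the score averaged over neighbors 2. Pmch had 603, 4138, 2645 and 2465 CPM against 25.6, 1183, 676 and 420 in other spots (2.65 ± 1.15), lowest in trained 1. Cartpt had 144, 634, 229 and 646 CPM (2.32 ± 0.90), highest in trained 2 and untrained 2. Ghrh, growth hormone releasing hormone, had 6.96, 37.8, 14.3 and 59.2 CPM from 3, 19, 2 and 20 UMIs, under the level of 3 counts in untrained 1 and likewise highest in the second section of each condition.

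Each section had its own mixture. Trained 1 was led by Oxt (1846 CPM) and Avp (1869), with no UMI of Hcrt. Trained 2 had Oxt (527), Avp (2217), Hcrt (3392), Pmch (4138), Gal (593) and Npvf (141) together. Untrained 1 had Pmch (2645), Avp (401) and Hcrt (265) but 1 UMI of Oxt. Untrained 2 had Pmch (2465), Cartpt (646), Npy (347), Pomc (104) and Agrp (59.2), with no UMI of Avp and 2 of Oxt. Agrp, an arcuate peptide, had 0, 5, 0 and 20 UMIs. The transcripts of some peptides sat in few spots: the 10 richest of the 167 hypothalamus spots of trained 2 held 93.9% of its Avp UMIs, 83.4% of its Oxt and 78.1% of its Hcrt. Others were spread wider, with 49.2% for Cartpt, 46.1% for Sst and 29.9% for Cck in that section. In trained 1 the 10 richest held 60.4% of the Oxt UMIs.

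Many peptide-rich spots were not chosen by the rule. Of 32 spots with 10 or more Oxt UMIs in trained 1, 20 were hypothalamus spots, and in trained 2 it was 8 of 13. Hcrt reached 10 UMIs in 53 spots of trained 2, of which 19 were chosen, and Pmch in 111, of which 25 were. In all, 44.1 and 47.7% of the Oxt UMIs of trained 1 and trained 2 lay in hypothalamus spots, and 15.3% of the Pmch UMIs of trained 2. The untrained sections had 0 spots with 10 or more Oxt UMIs anywhere, and 12 and 5 Oxt UMIs in all spots together. Oxt and Avp shared spots: of 30 hypothalamus spots with 5 or more Oxt UMIs in trained 1, 12 also held 5 or more of Avp, and 8 of 9 did in trained 2.

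**Figure D3:**
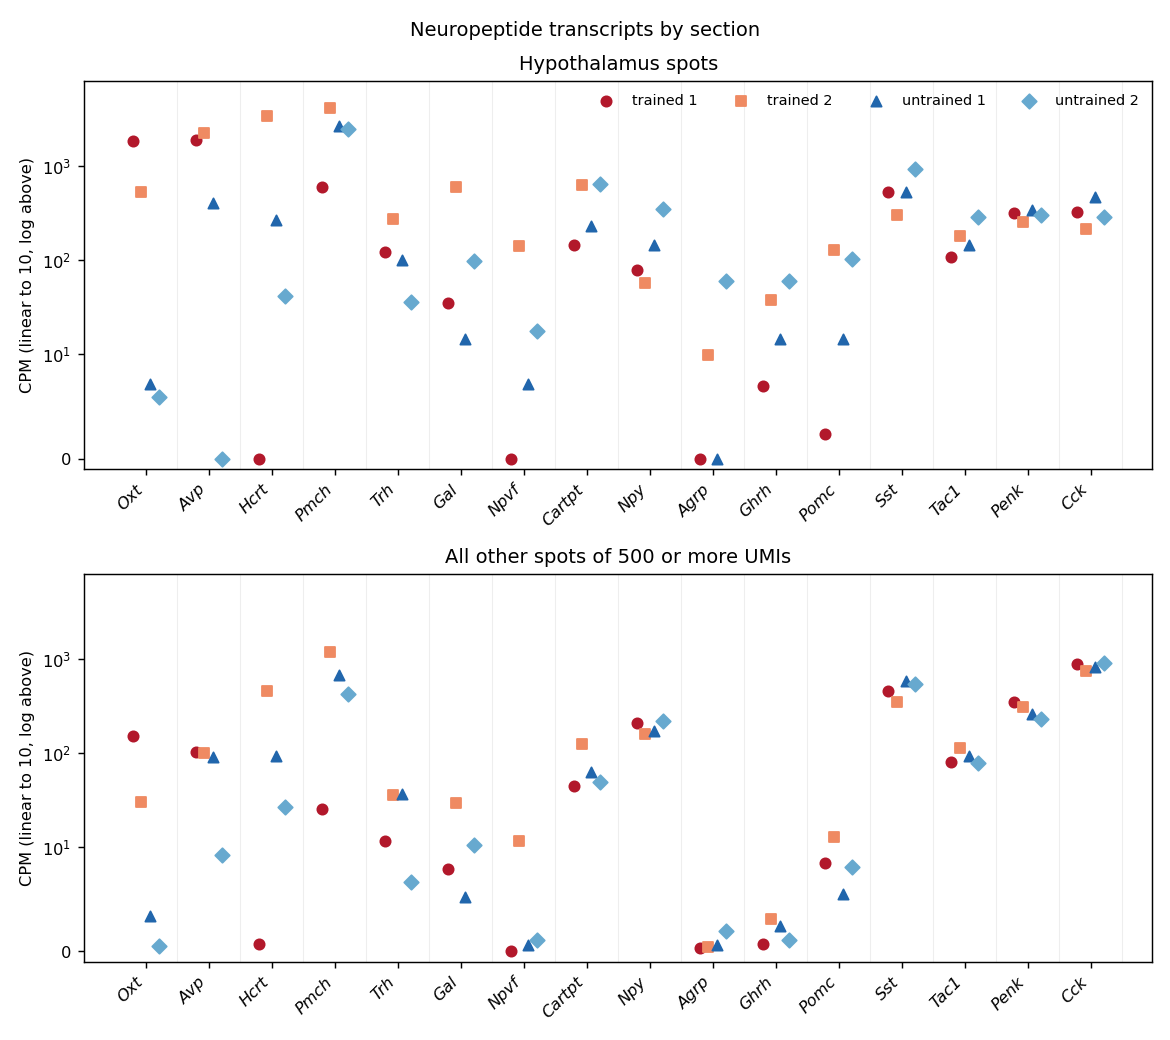
CPM of 16 neuropeptide genes in hypothalamus spots (upper) and in all other spots (lower) of each section, 1 point per section, on an axis that is linear to 10 and logarithmic above. Oxt is at 1846 and 527 CPM in trained and at 7.17 and 5.92 in untrained sections, while Penk lies between 254 and 344 in all 4.

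**Figure D4:**
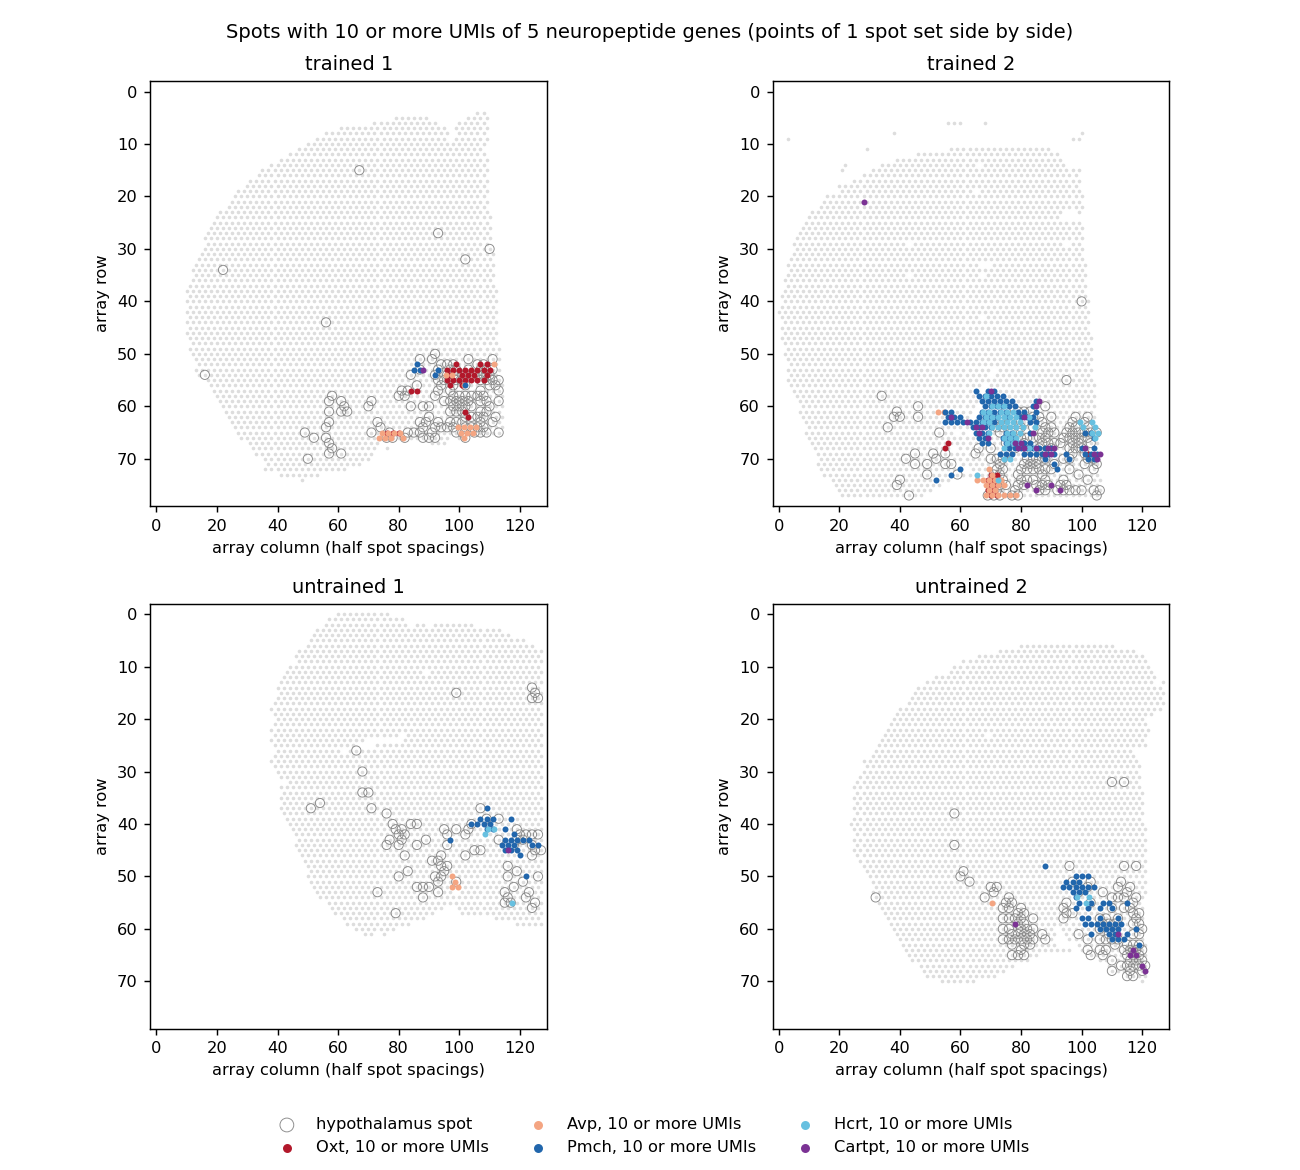
Spots with 10 or more UMIs of Oxt, Avp, Pmch, Hcrt or Cartpt on each array (x axis array column in units of 0.5 spot spacings, y axis array row), with hypothalamus spots as open circles. Oxt-rich spots form a patch in trained 1 (32 spots) and a smaller one in trained 2 (13 spots), and there are none in either untrained section. Pmch-rich spots number 6 in trained 1, 111 in trained 2, 29 in untrained 1 and 50 in untrained 2.

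The question of the study was what training left in the transcriptome. UMIs were therefore summed over the hypothalamus spots of each section and compared between conditions by edgeR (quasi-likelihood F-test) over all genes, two-sided with Benjamini-Hochberg adjustment. Of 6955 genes tested 8 (0.115%) had an adjusted p under 0.05, and 398 an unadjusted p under 0.05. Oxt, Avp and Trh rose (3 genes, 0.0431%), and Npy, 2900052N01Rik, Nrgn, Ddn and Cplx2 fell (5 genes, 0.0719%). Nothing in the labels separates cultures or litters, and with 2 mice per condition the p-values rest on a spread estimated over all genes. An exact permutation test of a single value could not go below 0.333. DESeq2 called 1 of the same genes (Oxt) and limma voom 4 of them.

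Oxt had 796 and 265 UMIs in trained and 1 and 2 in untrained sections. Pooled over the sections, 1061 UMIs against 3 gave a ratio of 181 with a 95% counting interval of 61.6 to 877, and the sections of the conditions did not overlap. The fitted change was 7.45 ± 0.58 on the log2 scale (SE, edgeR adjusted p 4.22e-12). It was called in all 4 edgeR fits that left out 1 section, between 6.20 without trained 1 and 8.10 without trained 2, but not by limma voom (adjusted p 0.725) or over the largest connected patch alone (adjusted p 0.468). A fit without 1 section leaves 1 mouse in a condition, which is assumed to vary like those of the other condition, here and wherever a section is left out. Oxt also differed outside: all other spots had 153 and 29.7 CPM in trained and 3.38 and 0.49 in untrained sections. The test of the training effect in hypothalamus spots minus that in all other spots gave 1.70 ± 0.82 (adjusted p 1.0, edgeR).

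Avp had 1869 and 2217 CPM in the trained sections and 401 and 0 in the untrained ones. The trained values were close and the untrained ones far apart, and 41 of the 56 Avp UMIs of untrained 1 lay in 1 spot. The change was 3.62 ± 0.54 (SE, edgeR adjusted p 1.09e-04), and 12.75 without untrained 1, where 0 UMIs stood alone for the condition, and 2.28 without untrained 2. Avp was called under 12 of 17 alternatives, and DESeq2 gave 3.27 with an adjusted p of 1.0. In the medial spots alone Avp had 1164, 2455, 31.4 and 0 CPM. Trh, thyrotropin releasing hormone, had 121, 270, 100 and 35.5 CPM, so that trained 1 and untrained 1 were close (1.73 ± 0.36, adjusted p 0.0244, edgeR). Its change was 1.09 without trained 2 and 0.90 without untrained 2, and it was called under 5 of 17 alternatives. Hcrt, at 0, 3392, 265 and 41.5 CPM, missed the threshold (3.64 ± 0.85, adjusted p 0.0792, edgeR) and turned to -8.18 without trained 2 (adjusted p 2.77e-12).

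Npy fell by 2.03 on the log2 scale (SE 0.29, adjusted p 8.72e-05, edgeR), from 143 and 347 CPM in the untrained to 78.9 and 57.7 CPM in the trained sections. The drop was 1.14 without untrained 2 (adjusted p 0.441), the section with the most Agrp UMIs. In untrained 2, 64.1% of the Npy UMIs of hypothalamus spots lay in 10 spots, and 1 spot held 30 of 117. Among other arcuate peptides, Cartpt, Pomc and Ghrh were high in trained 2 as well as in untrained 2, and none was called between conditions. Agrp, with 5 UMIs in the trained against 20 in the untrained sections, had a pooled ratio of 0.128 with a 95% counting interval of 0.0375 to 0.351, and no UMI in trained 1 or untrained 1.

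The genes Nrgn, Ddn and Cplx2, which also fell, were lower in hypothalamus spots than in the rest of every section. Nrgn, a calmodulin-binding postsynaptic protein of forebrain neurons, had 489 and 430 CPM in trained and 1204 and 829 in untrained sections (-1.18 ± 0.24, adjusted p 0.0148, edgeR). Ddn, dendrin, had 76.5 and 75.6 against 208 and 169 CPM (-1.32 ± 0.27, adjusted p 0.0197, edgeR). Cplx2, a complexin of transmitter release, had 151 and 101 against 344 and 228 (-1.18 ± 0.26, adjusted p 0.0414, edgeR). In none of the 3 did the conditions overlap, yet without trained 2 or without untrained 1 none was called, with adjusted p of 0.167 and 0.218 for Nrgn, 0.242 and 0.0635 for Ddn, and 0.777 and 0.331 for Cplx2.

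The lateral share differed between conditions in the same direction as these 3 transcripts, and its part in the result was not tested. Nrgn was at 1228, 1147, 1596 and 1415 CPM in lateral and at 328, 345, 738 and 382 in medial spots of trained 1, trained 2, untrained 1 and untrained 2, and lateral spots were above medial ones in every section for Ddn and Cplx2 too. The lateral share was 14.4 to 19.7% in trained and 37.7 to 53.5% in untrained sections. Within each group, too, Nrgn was lower in the trained than in the untrained sections. In a fit to the medial spots alone, which was chosen after the data were seen, 3 genes were called, Avp, Oxt and Npy. This fit held fewer spots and UMIs, so a call lost there does not measure the part of the lateral share. There Nrgn was at -0.70, Ddn at -0.75 and Cplx2 at -0.99, each with an adjusted p of 1.0 (edgeR, 5517 genes), on 63723 UMIs in untrained 1.

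The lateral spots met the label only in part. Of 2817 genes with 100 or more UMIs, 5 (0.177%) were over 2-fold higher and 2 (0.071%) over 2-fold lower in lateral than in medial spots in all 4 sections, with no test, since the split was made on these data. Irs4 had 0, 18.8, 66.0 and 20.5 CPM in lateral and 48.0, 82.3, 110 and 157 in medial spots. Icam5, telencephalin, chosen after its values were seen, had 142 to 171 CPM in lateral and 31.1 to 48.9 in medial spots. The summed CPM of 8 cortex markers was 1693, 1429, 2111 and 1839 in lateral spots, above the 531 to 1114 of medial spots and below the 2583, 1934, 2749 and 2890 of all other spots. The 30 hypothalamic transcription factors summed to 220, 207, 303 and 287 CPM in lateral spots, below the 369 to 503 of medial spots and above the 107 to 132 of all other spots. In trained 1 lateral spots held 1668 CPM of Oxt and 5093 of Avp. The lateral spots are called by their position only.

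**Figure D5:**
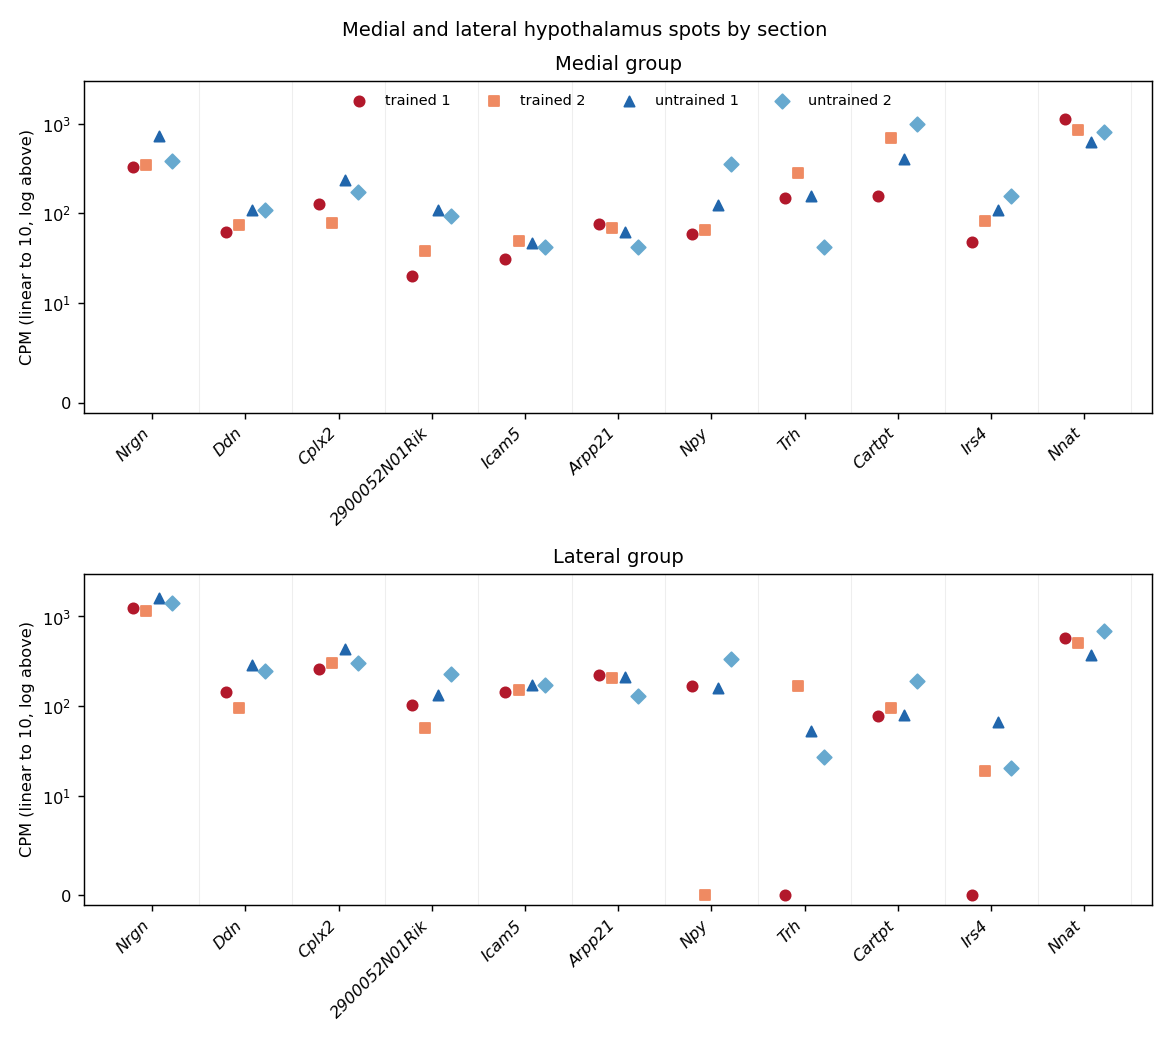
CPM of 11 genes in medial (upper) and lateral (lower) hypothalamus spots of each section, 1 point per section, on an axis that is linear to 10 and logarithmic above. Nrgn lies between 328 and 738 CPM in medial and between 1147 and 1596 in lateral spots, and Cartpt, Trh and Irs4 are higher in the medial group of every section.

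The difference between conditions in a further call was also seen outside. The noncoding transcript 2900052N01Rik fell by 1.96 (SE 0.32, adjusted p 5.98e-04, edgeR), with 34.8 and 39.8 CPM in trained and 122 and 151 in untrained sections. All other spots had 35.9 and 34.1 against 108 and 99.4 CPM, and the difference between the effects was -0.31 ± 0.33 (adjusted p 1.0, edgeR). The change was -1.76 without untrained 2 (adjusted p 0.107) and -1.78 in the medial spots (adjusted p 0.973). Hibch, a mitochondrial enzyme of valine breakdown, had 37.1 and 29.8 CPM in the trained sections and 0 UMIs in the untrained ones, where the other spots held 12.6 and 11.5 CPM, and missed the threshold (adjusted p 0.0621, edgeR).

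Outside the neuropeptides and Nrgn, a cortex marker, no listed gene was called. All 4 cortex markers tested were below 0, with a median of -0.85, and 3 of them, Nrgn, Mef2c (-0.97) and Slc17a7 (-0.74), had an unadjusted p under 0.05. Of 24 imprinted genes tested none was called, against 0.115% of all genes. Their median log2 change was 0.19 against 0.0086 for all genes, and 3 had an unadjusted p under 0.05. Immediate early genes, which neurons switch on within minutes of activity, had 7 members tested, with a median of 0.41. Of these 0 were called, against 0.115% of all genes, and 1 had an unadjusted p under 0.05. In all other spots the 14 genes of that list summed to 860 and 968 CPM for the trained sections, 457 for untrained 1 and 989 for untrained 2, so that untrained 1 was low throughout. Egr1 had 109 and 117 CPM in trained and 28.7 and 94.8 in untrained sections, and Fos had 69.6 and 53.7 against 35.8 and 56.3. Against the other spots, 5 of 7 immediate early genes with enough UMIs were lower in all 4 sections, as were 15.6% of all genes. Arc, whose promoter drives the Cre of these mice, had 32.5, 31.8, 35.8 and 50.4 CPM, below the other spots of every section (51.9 to 147). Of 5 glucocorticoid response genes tested 0 were called by edgeR (0 at an unadjusted p under 0.05), against 0.115% of all genes. Sgk1 among them, at 78.9, 143, 86.0 and 154 CPM, varied more within the conditions than between them. Of 19 neuropeptide genes tested 3 were called higher and 1 lower (0.0431% and 0.0719% of all genes), with a median of -0.20, and 9 had an unadjusted p under 0.05, as did 398 of the 6955 genes.

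Whether training effects differed between the hypothalamus spots and the rest of the section was tested with both classes of all 4 sections in 1 model, with the section as a block. Of 12289 genes 6 (0.0488%) passed, of which 4 (0.0325%), Avp, Hcrt, Rasgrf2 and Nnat, had a higher and 2 (0.0163%), Npy and Cartpt, a lower effect in hypothalamus spots, and 484 had an unadjusted p under 0.05. With the same sums DESeq2 and limma voom each called 0 (78 and 491 genes at an unadjusted p under 0.05). The 2 classes of a section share its tissue and depth, and all other spots also held hypothalamic peptides. In this edgeR fit the spread shared over genes had 1141 degrees of freedom, against 2 for the gene itself. The SE and p-values below thus hardly reflect the spread of a single gene between mice.

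Avp differed by 2.67 ± 0.24 (SE, adjusted p 4.03e-23, edgeR): other spots had 101 and 98.9 CPM in trained and 90.0 and 9.25 in untrained sections, far closer than in the hypothalamus spots. The difference was 2.29 without untrained 2 and 12.58 without untrained 1, where 0 UMIs stood for the condition. Npy differed by -1.78 ± 0.25 (adjusted p 2.33e-08, edgeR), since the other spots had 205 and 158 against 171 and 218 CPM. Its difference was -1.06 without untrained 2 (adjusted p 0.694). For Hcrt the difference of 1.74 ± 0.26 (adjusted p 8.09e-08, edgeR) was at -5.25 without trained 2, since trained 1 had no Hcrt UMI in these spots. Rasgrf2, an exchange factor for Ras, stood at 125, 302, 136 and 121 CPM, so that trained 2 alone was high (1.23 ± 0.25, adjusted p 0.00408, edgeR), and its difference was 0.31 without that section. Its call was also lost without untrained 1 (adjusted p 0.154) and without untrained 2 (adjusted p 0.289). Cartpt differed by -0.94 ± 0.21 (adjusted p 0.0140, edgeR) and by 0.36 without untrained 2, and its call was lost without trained 1 as well (-0.70, adjusted p 1.0). Nnat, neuronatin, the 1 imprinted gene among the 6, had 1025 and 819 CPM in trained and 487 and 752 in untrained sections against 192 to 255 elsewhere (0.75 ± 0.17, adjusted p 0.0373, edgeR). Its difference was 0.42 without untrained 1 (adjusted p 0.999) and 0.47 without trained 1 (adjusted p 1.0).

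The peptide mixture also varied between sections of 1 condition. Hcrt was at 0 and 3392 CPM, Gal at 34.8 and 593 and Npvf at 0 and 141 CPM in trained 1 and trained 2, and Avp at 401 and 0 and Agrp at 0 and 59.2 in untrained 1 and untrained 2. Six3, a factor of anterior hypothalamus, was at 90.5 CPM in trained 1 and at 15.9, 28.7 and 8.89 in the others. The methods give 1 range within the dorsal hippocampus for all sections, but not the place of each section in it. Each mouse had 1 section, and the place of the section and training cannot be told apart for Oxt, Avp, Trh and Npy.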

How the data were processed

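Spatial transcriptomes (Visium) were measured in 1 section per mouse, 2 trained and 2 untrained. The authors deposited UMI counts per gene and barcode, 32285 genes, not normalized, with spot positions. The file headers name Space Ranger 1.2.2, while the methods name another Space Ranger version and an mm10 reference, and the submitters' processing notes list Cell Ranger 8, STAR and GRCm39 (mm39). The build was thus not settled, and genes were matched by symbol. The hypothalamus spots, the gene lists and the medial and lateral split were chosen with earlier results of these data known, so that no list is independent evidence.

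Spots with fewer than 500 UMIs were left out. UMIs were summed per section and class, and CPM were taken of these sums. Sums were tested with edgeR 4.0.16 in R 4.3.3 (filterByExpr, TMM, quasi-likelihood F-test, two-sided, Benjamini-Hochberg over all genes tested, threshold 0.05), without covariates between conditions, and with the section as a block for the difference of effects. Both fits had 2 residual degrees of freedom per gene. The spread shared over genes had 38.4 between conditions and 1141 for the difference of effects. The SE given with edgeR values was the absolute log2 change divided by the square root of F, so it restates the test. DESeq2 1.42.0 and limma 3.58.1 were alternatives, as were other spot shares, selections, filters, thinning and each section left out. Named genes were those of the fixed lists, the 20 largest mean ratios among genes higher in all 4 sections and, per training comparison, the 10 smallest p-values and all calls. The tests were checked on simulated counts, where both missed most 2-fold changes, recovered most 4-fold changes and made some false calls. Descriptions used python 3.11.15, pandas 2.3.3 and scipy 1.17.1.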

Additional observations from a re-analysis of the deposited data

Results flagged for a closer look

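For 6 genes the training effect in hypothalamus spots differed from that in all other spots of the same sections, by the edgeR test of the difference itself, given here on the log2 scale. Avp differed by 2.67, was called under 13 of 17 alternatives and ran from 1.39, for spots chosen by a second hypothalamus gene list, to 12.58, without untrained 1. Npy differed by -1.78, and its adjusted p without untrained 2 was 0.694. Hcrt differed by 1.74 and by -5.25 without trained 2. Rasgrf2 differed by 1.23 and by 0.31 without trained 2. Cartpt differed by -0.94 and by 0.36 without untrained 2. Nnat differed by 0.75 and by 0.42 without untrained 1. None of the 6 was called by DESeq2 or limma voom.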

How the results depend on the processing

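Against 8 genes called between conditions in hypothalamus spots, the total number called, not all of them among the 8, was as follows. DESeq2 gave 1, limma voom 4, no filter on low counts 15, sums thinned to the smallest total 1, the top 4% of spots 1, the largest patch 1, a second hypothalamus gene list 5 (3 of them among the 8) and the medial spots, chosen after seeing the data, 3. Leaving out 1 section gave 11 to 30. The replicate numbers did not pair the sections (correlation of deviations 0.0395 over 6955 genes, 2 pairs), and the replicate block gave 28 calls, among them all 8.

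Against 6 genes whose effect differed from that in other spots, DESeq2 and limma voom gave 0, thinned sums 2, the top 4% of spots 3, a score averaged over neighbors 12, the medial spots 3 and the fit with no section block 0. Leaving out 1 section gave 4 to 6. Against 46 genes over 2-fold higher than other spots, 27 were found with 20 CPM added, and totals of 44 to 82 (without untrained 1) with 1 section left out, of which 41 to 46 were among the 46. Of the 46, 22 stayed with every spot thinned to 500 UMIs, 24 over the largest patch and 26 with the second hypothalamus gene list. The cause of these moves was not tested.

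Between conditions, Hcrt turned to -0.050 with limma voom, and ran from -8.18 (without trained 2) to 5.24 with 1 section left out. In the difference of effects with 1 section left out, Hcrt ran from -5.25 (without trained 2) to 2.26, Cartpt from -1.55 to 0.36 (without untrained 2) and Tac1 from -1.29 to 0.033 (without untrained 2). Cartpt was at 1.28 over the largest patch and Tac1 at 0.24 in thinned sums. Of 164 values of named genes between conditions under alternatives 97 kept direction and side of the threshold, 57 lost the call, 8 gained it and 2 reversed. For the difference of effects it was 108, 49, 7 and 5 of 169 values. Hypothalamus spots of untrained 1 held 139534 UMIs, where a gene at 0 UMIs could be at up to 21.5 CPM.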
